A study of Mus musculus with 4 samples.

Results

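Choroid plexus genes were followed as a set of 10, namely Ttr, Enpp2, Sostdc1, Aqp1, Clic6, Kcne2, Kcnj13, Folr1, Otx2 and Calml4, chosen by name as genes of the choroid plexus epithelium. They are 10 of the 26433 genes in the count table, and all 10 were found. RNA was extracted from telencephalic tissue of embryonic day 15 (E15) mouse embryos, labelled cerebral cortex and strain C57BL/6, and sequenced in bulk. The cKI f/+ embryos carry a copy of human SERPINA3 under the CAG promoter, placed in the Rosa26 locus behind a floxed stop cassette, together with Nestin-Cre, which removes the cassette in neural progenitors and the cells they give rise to. The controls are wild type (WT) littermates, with no transgene or Cre given, and the knock-in line comes from edited founders bred with a mixed stock before the cross to C57BL/6 Nestin-Cre mice. The table holds 2 libraries of cKI f/+, KI2 and KI3, and 2 of WT, WT1 and WT3. The columns are known by genotype only. The study's methods define replicates in mice as different embryos, without describing the embryos or litter behind each of these libraries.

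The choroid plexus is the frond-like tissue in the ventricles that makes cerebrospinal fluid. Its epithelium grows from the dorsal midline of the telencephalon, beside the cortical hem, and it stays attached to the medial edge of the cortex, so a cortical dissection can include more or less of it. The epithelial cells secrete carrier proteins, move water and ions through apical channels and transporters, take folate into the fluid, and carry tufts of motile cilia. The transcription factor OTX2 is needed for the tissue to form.

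Library totals ranged from 17423512 counts in WT3 to 18119444 in KI3, so that a floor of 3 counts stands at 0.166 to 0.172 CPM, the read count scaled to the library total. Floors and intervals cover counting error only. The tissue carried cortical markers at high levels, with 10 listed cortex genes summing to 4142 to 4582 CPM, and Neurod6 and Neurod2, which mark cortical neurons, were the most abundant of them. Sex-linked genes split the libraries in the same way as genotype. Xist, the RNA of the inactive X chromosome, had 13223 and 11882 counts in KI2 and KI3 against 5 and 5 in WT1 and WT3, while the Y-linked Kdm5d had 0 and 0 against 951 and 918. Embryo sex and genotype therefore cannot be told apart in any comparison of the groups. The human transgene was not analysed here, so the genotype labels were not checked on it.

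Promoter windows, reaching from 250 bases before to 50 bases after a RefSeq start site (GRCm38.p6), were found for 5 members, which have 9 windows in all. They were searched because Otx2 is itself a member and encodes a DNA-binding protein, for the letters TAATCC, the core of the OTX2 motif, on both strands. Of the 9 windows, 1 held these letters, against 7.06% of all 32851 windows. The match lies in an Otx2 window on the minus strand (chr14:48665060-48665359), where it reads GGATTA, the reverse complement, and is given in capitals.

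Otx2, window with the match: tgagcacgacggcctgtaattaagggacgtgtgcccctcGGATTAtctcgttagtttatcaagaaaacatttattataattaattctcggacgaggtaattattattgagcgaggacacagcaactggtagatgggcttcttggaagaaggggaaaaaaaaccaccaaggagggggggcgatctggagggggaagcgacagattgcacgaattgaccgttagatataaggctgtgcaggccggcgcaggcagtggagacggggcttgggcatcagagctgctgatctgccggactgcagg

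Neither window of Kcne2 and no window of Aqp1 held the letters. The window at the first start site of Kcne2 (chr16:92292139-92292438, plus strand) and that of Aqp1 (chr6:55336049-55336348, plus strand) are shown as examples from channel genes. These genes were highest in KI3, as every member was.

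Kcne2: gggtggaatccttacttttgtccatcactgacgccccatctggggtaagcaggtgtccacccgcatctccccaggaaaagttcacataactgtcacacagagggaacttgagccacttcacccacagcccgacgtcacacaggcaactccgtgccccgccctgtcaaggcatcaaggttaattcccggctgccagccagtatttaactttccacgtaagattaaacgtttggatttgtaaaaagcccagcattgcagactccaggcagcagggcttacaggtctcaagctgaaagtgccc
Aqp1: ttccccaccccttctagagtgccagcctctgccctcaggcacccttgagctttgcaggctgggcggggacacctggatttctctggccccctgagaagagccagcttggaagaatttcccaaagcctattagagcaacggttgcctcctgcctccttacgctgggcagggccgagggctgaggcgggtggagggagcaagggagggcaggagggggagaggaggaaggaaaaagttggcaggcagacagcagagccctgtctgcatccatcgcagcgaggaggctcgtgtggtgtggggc

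A match is only a match of letters, and a window without it says nothing about the factor.

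All 10 choroid plexus genes had their highest CPM in KI3, including Kcnj13, whose only read fell there. KI3 was the highest library for 27.6% of the 15786 genes tested. The sum over the 10 members was 15.3 CPM in KI2 and 78.9 in KI3, against 6.98 in WT1 and 11.2 in WT3. Ttr made up much of this. It took 42.6% of the members' reads in KI2 (exact 95% interval 36.7 to 48.8%) and 66.9% in KI3 (64.3 to 69.3%), but 0% in WT1 (up to 2.95%) and 2.04% in WT3 (0.559 to 5.14%). Without Ttr the other 9 summed to 8.80, 26.2, 6.98 and 11.0 CPM in KI2, KI3, WT1 and WT3, so that KI2 lay between the WT libraries and KI3 stood above the other libraries. In bulk tissue, fewer cells of a type and less RNA per cell cannot be told apart.

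**Figure D1:**
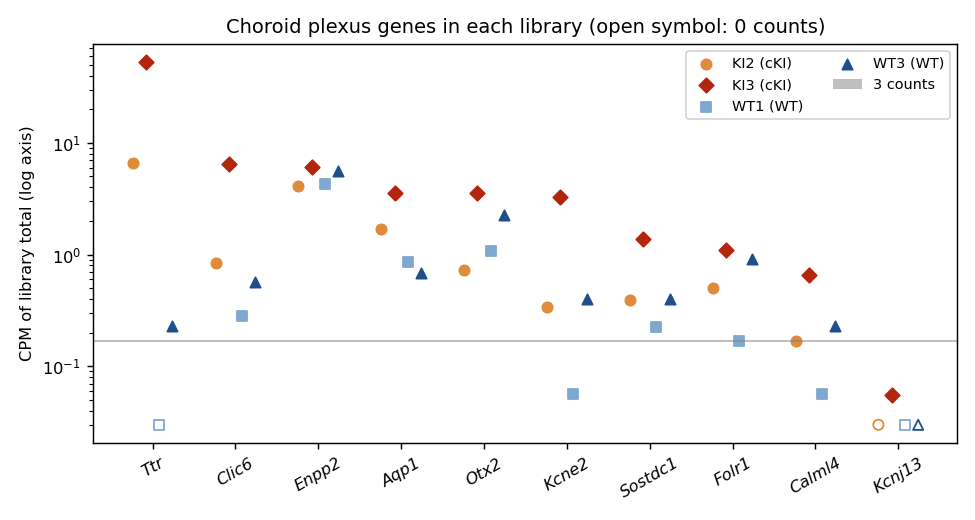
Level of each choroid plexus gene in the 4 libraries, as CPM of the library total on a log axis, with 1 point per library, open symbols at the bottom for 0 counts and a grey band at the CPM of 3 counts. KI3 is the highest point for every gene, Ttr reaches 52.8 CPM there against 0 and 0.230 CPM in the WT libraries, and Enpp2 has its 4 libraries close together between 4.12 and 6.07 CPM.

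The secreted proteins are given first, with gene positions on GRCm38 as in the table. Ttr (transthyretin, the carrier of thyroid hormone and of the retinol-binding protein that the epithelium releases into the fluid; chromosome 18, 20665250 to 20674324) had 116 (KI2) and 956 (KI3) counts against 0 (WT1) and 4 (WT3), or, in that order, 6.54, 52.8, 0 and 0.230 CPM. The genotypes did not overlap, and the cKI f/+ libraries were themselves far apart. WT1 was under the floor, and WT3 was 1 count above it. Enpp2 (autotaxin, a secreted enzyme that makes the lipid messenger lysophosphatidic acid; chromosome 15, 54838898 to 54920146) had 73 (KI2) and 110 (KI3) counts against 75 (WT1) and 97 (WT3), or, in that order, 4.12, 6.07, 4.26 and 5.57 CPM. The genotypes overlapped, each having a lower and a higher library. Sostdc1 (a secreted antagonist of BMP and Wnt signals; chromosome 12, 36314139 to 36318452) had 7 (KI2) and 25 (KI3) counts against 4 (WT1) and 7 (WT3), or, in that order, 0.395, 1.38, 0.227 and 0.402 CPM. KI3 stood above the other libraries, and KI2 had as many reads as WT3.

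Among the channels, Aqp1 (the water channel of the apical membrane; chromosome 6, 55336432 to 55348555) had 30 (KI2) and 65 (KI3) counts against 15 (WT1) and 12 (WT3), or, in that order, 1.69, 3.59, 0.852 and 0.689 CPM. The genotypes did not overlap, and the WT libraries lay closer to each other than the cKI f/+ ones. Clic6 (of the chloride intracellular channel family; chromosome 16, 92485736 to 92541243) had 15 (KI2) and 118 (KI3) counts against 5 (WT1) and 10 (WT3), or, in that order, 0.846, 6.51, 0.284 and 0.574 CPM. KI3 was far above the rest, with KI2 next and only 5 reads above WT3. Kcne2 (a regulatory subunit of potassium channels; chromosome 16, 92292389 to 92298129) had 6 (KI2) and 59 (KI3) counts against 1 (WT1) and 7 (WT3), or, in that order, 0.338, 3.26, 0.0568 and 0.402 CPM. Here KI2 was below WT3, and KI3 alone stood apart. Kcnj13 (the inward rectifier Kir7.1; chromosome 1, 87386363 to 87394729) had 1 count in KI3 and 0 in the other 3 libraries, below the floor in all 4.

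Folr1 (folate receptor alpha, which carries folate into the fluid; chromosome 7, 101858331 to 101870788) had 9 (KI2) and 20 (KI3) counts against 3 (WT1) and 16 (WT3), or, in that order, 0.507, 1.1, 0.170 and 0.918 CPM. The genotypes overlapped, with WT3 above KI2. Otx2 (the homeodomain transcription factor whose promoter window is printed above; chromosome 14, 48657679 to 48667644) had 13 (KI2) and 64 (KI3) counts against 19 (WT1) and 39 (WT3), or, in that order, 0.733, 3.53, 1.08 and 2.24 CPM. KI2 was the lowest of the 4 libraries for this gene and KI3 the highest. Calml4 (a calmodulin-like protein; chromosome 9, 62858080 to 62875921) had 3 (KI2) and 12 (KI3) counts against 1 (WT1) and 4 (WT3), or, in that order, 0.169, 0.662, 0.0568 and 0.230 CPM. Only KI3 was clearly above the floor. The number of members above 3 counts was 8 in KI2 and 9 in KI3, against 5 in WT1 and 9 in WT3.

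To compare levels between genes, CPM was divided by summed exon length (CPM per kb). In cKI f/+ libraries the mean level per kb was 25.0 for Ttr, followed by Kcne2 (1.02), Aqp1 (1.0), Clic6 (0.940), Enpp2 (0.881), Otx2 (0.505), Sostdc1 (0.498), Folr1 (0.351), Calml4 (0.114) and Kcnj13 (0.0217). The ranges of the 2 libraries overlapped between all neighbours in this order from Kcne2 to Folr1, and not between Ttr and Kcne2, Folr1 and Calml4, or Calml4 and Kcnj13. In WT libraries Enpp2 came first with 0.850 CPM per kb, then Otx2 (0.393), Aqp1 (0.293), Folr1 (0.237), Sostdc1 (0.177), Kcne2 (0.130), Clic6 (0.110), Ttr (0.0968), Calml4 (0.0393) and Kcnj13 (0). Here Enpp2 was clear of Otx2 and Calml4 of Kcnj13, while all other neighbours overlapped. Ttr was thus at position 8 by the WT mean and at position 1 in both cKI f/+ libraries, where it had 5.51 CPM per kb in KI2 and 44.5 in KI3.

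Since dissection can vary by library, the libraries of each genotype were then compared with each other. Of 9 members with at least 10 reads in the cKI f/+ pair, 8 were at least 1.5 times higher in KI3 than in KI2, where 6.84% of 17239 genes were. Kcne2, Folr1, Sostdc1 and Calml4 had 6, 9, 7 and 3 reads in KI2 and met the limit of 10 only with the reads of KI3. Their part in this count is therefore given only as a description. The ratio of CPM was 9.63 for Kcne2 (exact 95% interval 4.17 to 27.3), 8.07 for Ttr (6.65 to 9.87), 7.70 for Clic6 (4.48 to 14.2) and 4.82 for Otx2 (2.63 to 9.54). Calml4, Sostdc1, Folr1 and Aqp1 had ratios of 3.92 (1.06 to 21.6), 3.50 (1.47 to 9.57), 2.18 (0.947 to 5.43) and 2.12 (1.36 to 3.39), and the interval of Folr1 includes equal levels. Enpp2 was under the limit with 1.48 (1.09 to 2.01). Over all 10 members the summed CPM was 5.15 times as high in KI3 as in KI2, and 2.97 times without Ttr. Among genes that passed the expression filter, 5 of 6 members were past 1.5-fold, where 4.99% of 15786 genes were.

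In the WT pair, 4 of 6 members with at least 10 reads were at least 1.5 times higher in WT3 than in WT1, where 7.12% of 17151 genes were. Folr1, Clic6 and Sostdc1, with 3, 5 and 4 reads in WT1, met the limit of 10 only with the reads of WT3, so their part is again only a description. Folr1 had a ratio of 5.39 (1.54 to 28.9) and Otx2 of 2.08 (1.17 to 3.80), with intervals above equal levels. The intervals of Clic6 (2.02, 0.630 to 7.54), Sostdc1 (1.77, 0.450 to 8.24), Enpp2 (1.31, 0.957 to 1.79) and Aqp1 (0.809, 0.346 to 1.85) include 1, so no difference was detectable at this depth. Ttr, Kcne2, Calml4 and Kcnj13 had fewer than 10 reads in the pair. The summed CPM of the 10 members was 1.61 times as high in WT3 as in WT1, and 1.58 times without Ttr.

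**Figure D2:**
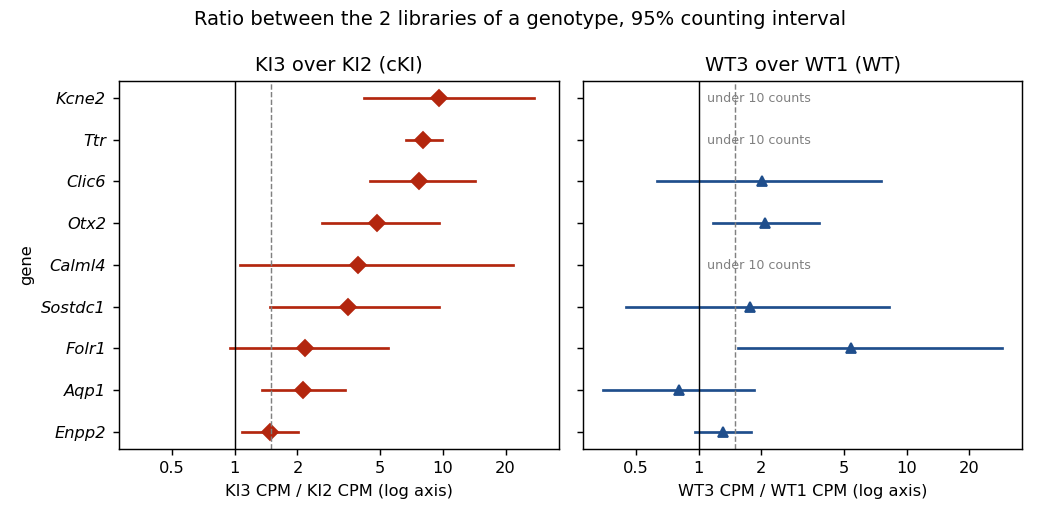
Ratio of CPM between the libraries of a genotype, KI3 over KI2 (left) and WT3 over WT1 (right), on a log axis with exact 95% counting intervals, a solid line at 1 and a dashed line at 1.5. In the cKI f/+ pair Kcne2, Ttr and Clic6 lie between 7.70 and 9.63, while in the WT pair only Folr1 and Otx2 have intervals above 1.

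The members did not keep a fixed proportion to each other between libraries. Per read of Clic6 there were 7.73 reads of Ttr in KI2 (4.50 to 14.3) and 8.10 in KI3 (6.69 to 9.89), and per read of Kcne2 there were 19.3 (8.62 to 53.8) and 16.2 (12.5 to 21.5). The intervals of KI2 and KI3 overlapped for both genes. Per read of Aqp1 there were 3.87 reads of Ttr in KI2 (2.57 to 5.99) and 14.7 in KI3 (11.4 to 19.2), and per read of Enpp2 1.59 (1.18 to 2.16) and 8.69 (7.13 to 10.7), so that these intervals were apart. For Otx2 they overlapped, at 8.92 (5.02 to 17.3) and 14.9 (11.6 to 19.6). In WT3 the ratio was far lower, with 0.4 reads of Ttr per read of Clic6 (0.0916 to 1.39) and 0.0412 per read of Enpp2 (0.0110 to 0.109). The 97 reads of Enpp2 and 39 of Otx2 in WT3 thus stood beside 4 of Ttr.

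The spread within a genotype was large for every member tested. The SD of log2(CPM + 1) within genotypes was 1.42 for Ttr, 1.02 for Clic6, 0.76 for Otx2, 0.43 for Folr1, 0.39 for Aqp1 and 0.28 for Enpp2, against a median of 0.11 over all genes tested. These values lie between percentile 91.3 (Enpp2) and percentile 100 (Ttr, after rounding) of all genes tested. Members with few reads carry more counting error, and the percentiles were not taken among genes of like level.

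Next, cKI f/+ was compared with WT with the quasi-likelihood test of edgeR, adjusted by Benjamini-Hochberg over all 15786 genes that passed the expression filter, to ask whether choroid plexus genes differed with genotype. Of the 10 members, 6 passed the filter and 0 were called at an adjusted p under 0.05, where 19 genes (0.120%) were called among all tested, 11 higher and 8 lower in cKI f/+. DESeq2 also called 0 members, and the likelihood ratio test of edgeR called 1, Ttr, where it called 0.342% of all genes. Among all 15786 genes tested, 726 had an unadjusted p under 0.05 by edgeR. The members among them were Ttr, Aqp1 and Clic6. These were also the members with both cKI f/+ libraries above both WT libraries, 3 of 6 where 16.0% of all genes tested had this order. Ttr, with 0 and 4 counts in WT1 and WT3, and Clic6, with 5 and 10, would not have passed the filter on the WT libraries alone. Their low p and their part in the 3 of 6 are therefore given only as a description. Ttr had a log2 fold change of 7.94 (SE 1.33, adjusted p = 0.115 by edgeR) and ranked 25 by p among all genes. Aqp1 had 1.77 (SE 0.44, adjusted p = 0.663) and Clic6 3.09 (SE 0.87, adjusted p = 0.839 by edgeR). The remaining members tested had smaller differences, with 0.57 (SE 0.69) for Folr1, 0.37 (SE 0.61) for Otx2 and 0.06 (SE 0.25) for Enpp2, and adjusted p from 0.990 to 0.994 by edgeR. The median log2 fold change of the 6 members was 1.17, beside 0.00 over all genes tested, but Ttr passed the filter through its cKI f/+ libraries alone and the other 4 members were not tested. With no filter, Kcne2 had a log2 fold change of 2.94 (SE 1.05), Calml4 of 1.5 (SE 0.96) and Sostdc1 of 1.48 (SE 0.68), each with an adjusted p of 0.889 by edgeR. No fold is given for Kcnj13, which was under the floor in every library. An exact permutation test (two-sided) of each gene alone cannot go below 0.333 with 2 libraries against 2, and Ttr, Aqp1 and Clic6 reached that value.

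These calls depended on which library was left out, the lone library of a genotype then being assumed to vary like the others. Without KI3, Ttr was called, with a log2 fold change of 5.76 (SE 0.56). Ttr entered that fit through KI2 alone, having 0 and 4 counts in WT1 and WT3, so the call is given only as a description. Aqp1 then had 1.13 and Clic6 0.98, each with an adjusted p of 1 by edgeR, and Otx2 changed sign to -1.16, Enpp2 to -0.25 and Folr1 to -0.09. The median of the 6 members was then 0.44. Without KI2, 9 members passed the filter and 4 were called, namely Ttr (8.76, adjusted p = 2.96e-11), Clic6 (3.90, adjusted p = 4.05e-05), Kcne2 (3.78, adjusted p = 0.00736) and Aqp1 (2.2, adjusted p = 0.0272), all higher in KI3 than in WT by edgeR. Ttr, Kcne2, Sostdc1 and Calml4 had at most 7 counts in a WT library and entered that fit through KI3 alone, so the number called there is given only as a description. Ttr was also called without WT1 (log2 fold change 6.97) and without WT3. It entered both fits through the cKI f/+ libraries alone, so these calls too are only a description. In that last comparison the remaining WT library had 0 reads of Ttr and the fitted fold depends on the prior count. Over all genes tested in each fit, 52 (0.318%) were called without KI2, 46 (0.282%) without KI3, 49 (0.301%) without WT1 and 71 (0.436%) without WT3.

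**Figure D3:**
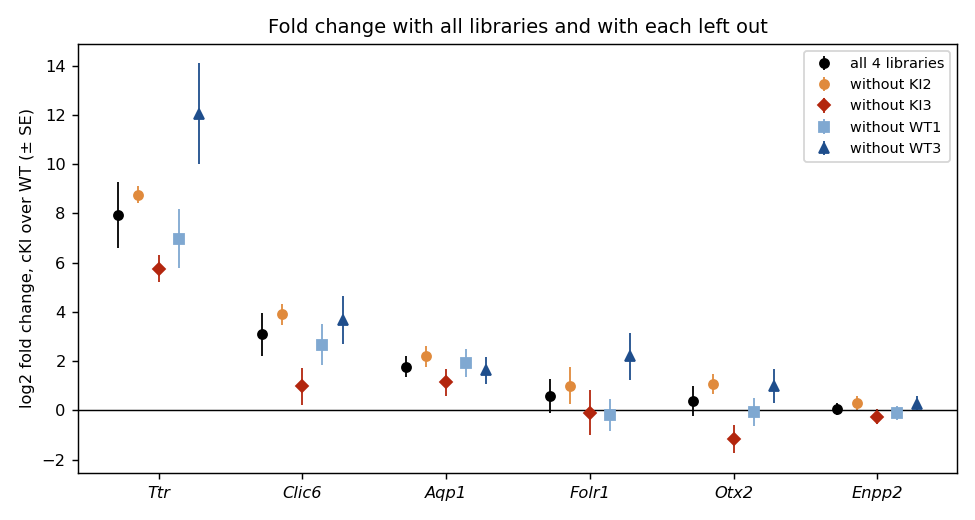
Log2 fold change of cKI f/+ over WT for the 6 choroid plexus genes tested, with bars of 1 SE, for all 4 libraries and with each library left out in turn. Ttr stays above 5 in every case, though without WT3 its fitted value of 12.05 depends on the prior count, whereas Otx2, Folr1 and Enpp2 lie on both sides of 0.

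Read against the summed WT libraries, KI2 alone had 57.3 times the level of Ttr (exact 95% counting interval 21.8 to 214) and 2.2 times that of Aqp1 (1.26 to 3.84). Its level of Otx2 was 0.443 times the WT level (0.223 to 0.818). For Clic6 (1.98, 0.900 to 4.34), Kcne2 (1.48, 0.424 to 4.87), Sostdc1 (1.26, 0.413 to 3.55), Calml4 (1.19, 0.184 to 6.09), Folr1 (0.936, 0.373 to 2.17) and Enpp2 (0.838, 0.629 to 1.11) the interval includes 1. These intervals hold no spread between libraries. For Otx2, KI2 had 13 counts beside 19 in WT1, and the WT libraries themselves differed beyond counting error. For Aqp1 and Otx2 the fit of KI2 against WT, given above, made no call.

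Other genes of the choroid plexus epithelium were read in the same fit. Of 30 listed, 29 were in the table, 16 passed the filter and 0 were called by edgeR or DESeq2 (1 by the likelihood ratio test). Of the 16, 2 had an unadjusted p under 0.05 (726 of all 15786 genes tested), and the median log2 fold change was 0.21. KI3 was the highest library for 7 of the 16, where it was for 27.6% of all genes tested. Both cKI f/+ libraries were above both WT libraries for 5, where they were for 16.0% of all genes tested. The summed CPM of the 29 was 379 in KI2 and 411 in KI3 against 357 in WT1 and 373 in WT3, of which Igfbp2, a binding protein of insulin-like growth factors that other brain cells also make, took 223, 247, 214 and 221. Slc12a2, Col9a3 and Atp1b1, the next most abundant, had log2 fold changes of -0.16, 0.15 and 0.03. Htr2c (the serotonin receptor 2C, abundant in this epithelium) had 12 (KI2) and 29 (KI3) counts against 4 (WT1) and 2 (WT3), with a log2 fold change of 2.69 (SE 0.67, adjusted p = 0.667 by edgeR). Its genotypes did not overlap, and KI3 was the highest library, as it was for Aqp1. Htr2c passed the filter through its cKI f/+ libraries alone, so its fold and order are given only as a description. The same holds for its part in the 2 genes with an unadjusted p under 0.05 and the 5 with that order. Spint2, a protease inhibitor, had 343, 415, 268 and 321 counts in KI2, KI3, WT1 and WT3 (0.33, SE 0.14, adjusted p = 0.969 by edgeR). Wfikkn2 had 30, 74, 23 and 35 counts, Sulf1 48, 165, 72 and 83, and the epithelial keratin Krt8 0, 13, 1 and 0, so that KI3 was again highest. Against this, 1500015O10Rik had 93, 48, 39 and 62 counts and Steap1 6, 15, 13 and 18, with their highest values in KI2 and WT3. Several defining genes were barely detected, with Tmem72 at 2, 5, 1 and 0 counts, Cldn2 at 0, 4, 1 and 0 and Kl at 2, 0, 0 and 1.

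Genes of neighbouring tissues showed part of the same order of libraries. Of 15 genes of the cortical hem and dorsal midline, the strip that borders the choroid plexus, 11 were tested and 0 were called by edgeR. Of the 11, 5 had an unadjusted p under 0.05 (726 of all 15786 genes tested) and 10 were highest in KI3 (27.6% of all genes tested). These hem genes had a median log2 fold change of 0.88, or 0.53 without KI3. Their summed CPM was 89.4 in KI2 and 120 in KI3 against 64.3 in WT1 and 88.3 in WT3. Wnt3a, a signal of the hem, had 54, 104, 15 and 38 counts in KI2, KI3, WT1 and WT3, and Lmx1a, a transcription factor of the same region, had 48, 80, 22 and 44. Wnt3a had the largest log2 fold change of the list (1.54). The most abundant gene, Rspo3, had 446, 480, 404 and 470 counts (log2 fold change 0.05), with its highest CPM in WT3. Wnt5a, the next most abundant, had 376, 460, 289 and 389 (0.27). Of 11 genes of multiciliated cells in the table, 5 were tested, 0 were called by edgeR, 2 had an unadjusted p under 0.05 and 5 were highest in KI3. Their median log2 fold change was 1.08, and -0.02 without KI3, and their summed CPM was 16.3, 26.5, 12.6 and 18.5. The genes with an unadjusted p under 0.05, Cfap126 and Ak7, had at most 9 and 7 counts in a WT library. They passed the filter through the cKI f/+ libraries alone, so their count is given only as a description. Foxj1, the regulator of motile cilia, had 226, 312, 192 and 263 counts, and Ccno, which acts in centriole amplification, had 11, 43, 5 and 20. In both lists KI3 was highest and WT1 lowest, as in the sum of the choroid plexus genes. The sums of the other choroid plexus, meningeal and diencephalon lists had this order too, so it was not particular to hem and multiciliated genes. None of the hem and multiciliated genes was at 0 in all 4 libraries, and Ccdc153 of the multiciliated list was at or under 3 counts throughout. The part of these genes in the values of the choroid plexus genes was not tested.

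Of 10 genes of meningeal fibroblasts, which also lie within the choroid plexus stroma, 7 were tested, 0 were called and 5 had an unadjusted p under 0.05, with a lowest adjusted p of 0.4 by edgeR and a median of 0.78. Their sum was 72.7 and 74.4 CPM in KI2 and KI3 against 48.7 and 58.7 in WT1 and WT3, so that here KI2 was close to KI3. Col1a1, a collagen of fibroblasts, had 82, 64, 10 and 28 counts in KI2, KI3, WT1 and WT3, and the largest log2 fold change of the list (1.91). Igf2, the most abundant gene, had 851, 955, 663 and 795 counts (0.28), and Col3a1, the next, 117, 121, 72 and 64 (0.78). Foxc1 went the other way, with 26, 38, 53 and 35 counts (-0.49). The 0 called holds for the fit with all 4 libraries only. Without KI3 the median of the list was 1.07, and the list's calls are not given there, since that fit rests on a lone cKI f/+ library. The part of the meningeal genes in the level of Ttr in both cKI f/+ libraries was not tested.

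The sums of the other lists lay closer together. The cortex list had its lowest sum in KI3 (4142 CPM) and its highest in WT1 (4582 CPM), with a median log2 fold change of -0.10 over 10 genes. Genes of the ventral telencephalon summed to 239 and 250 CPM in KI2 and KI3 and to 246 and 308 in WT1 and WT3, and those of the diencephalon to 40.1, 48.7, 38.1 and 43.2. Blood genes were lowest in KI3, with 385 CPM against 508 to 541 in the others. Endothelial genes ranged from 118 to 133 CPM and microglial genes from 33.9 to 39.7. None of these lists had a gene called by edgeR with all 4 libraries, with 0 (endothelium) to 3 (blood) genes at an unadjusted p under 0.05. This does not hold for every list without KI3, where a lone cKI f/+ library is left.

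**Figure D4:**
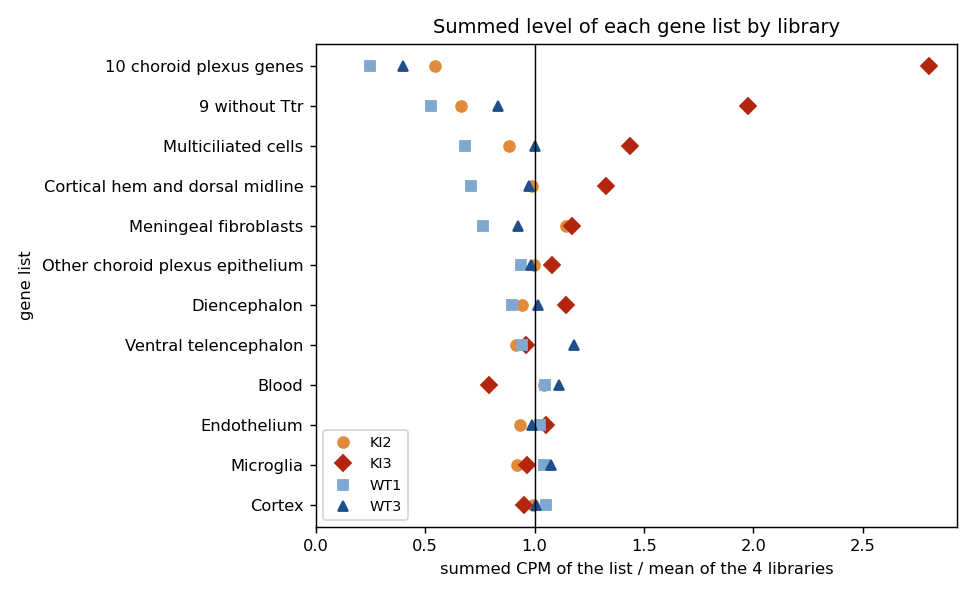
Summed CPM of each gene list in each library, divided by the mean of the 4 libraries, with a vertical line at 1. The 10 choroid plexus genes spread most, with 78.9 CPM in KI3 against 6.98 in WT1. Multiciliated and cortical hem genes show KI3 highest as well, as do the meningeal, other choroid plexus, diencephalon and endothelial lists. The cortex list stays between 4142 and 4582 CPM.

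Of 24 genes next to or overlapping a member, 14 were tested. Their log2 fold changes ranged from -0.59 to 0.13 with a median of 0.03 and adjusted p of at least 0.969 by edgeR, and 0 were at least 1.5 times higher in KI3 than in KI2. Kcne2 and Clic6 lie 187.6 kb apart on chromosome 16. Smim11 and Rcan1, which lie between them, had 344 and 1016 counts in KI2 and 442 and 977 in KI3, against 376 and 1064 in WT1 and 351 and 1102 in WT3. Some reads cannot be placed with certainty, since the strand setting of the counting is not given in the sources used here. Kcnj13 shares 623 bp of exon with Gigyf2 on the opposite strand and Otx2 shares 154 bp with Otx2os1, which had 3 counts in KI2 and 0 in the other libraries.

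The genes outside all lists whose levels over the 4 libraries were most like the mean of the members, by Pearson's r of log2(CPM + 1) among 3550 genes, were Itpa-ps1, Glyctk, Gdpd3, Gm42303 and Gm12120. Their r ranged from 0.998 to 0.9995 over only 4 libraries, which share the standing of KI3. Their counts varied less, with 43, 70, 37 and 47 for Itpa-ps1 in KI2, KI3, WT1 and WT3. The value of Itpa-ps1, a pseudogene, is uncertain, because its reads cannot be told from those of a near copy.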

How the data were processed

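Total RNA of E15 telencephalic tissue from 2 cKI f/+ and 2 WT samples was sequenced on the Illumina HiSeq platform. The values the authors deposited are raw counts of reads for each gene, not normalized. The submitters' processing notes name Bowtie2 2.2.3, TopHat2 2.0.12, HTSeq 0.6.0 and the build mm9, whereas the gene positions in the deposited table are those of GRCm38. The annotation and the strand setting are not given in the sources used here. Of 26433 genes, 26378 have their identifier in GENCODE M21, the source of exon lengths, and 24486 have the same position there. The table also holds the authors' own comparison (mean, fold change, log2 fold change, p-value, adjusted p-value and a significance mark), which was not used. Columns were assigned to a genotype by name. Triplicates are described in the labels, and 2 libraries of each genotype were analysed here.

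Counts were tested in R 4.3.3 with edgeR 4.0.16 (filterByExpr, TMM, quasi-likelihood test, Benjamini-Hochberg adjustment over all 15786 genes tested, threshold 0.05). Standard errors were derived from the log2 fold change and its F statistic (size over root F). The biological coefficient of variation was 8.72%, and 726 genes had an unadjusted p under 0.05. CPM was taken on library totals, and SD and r on TMM-scaled CPM with a pseudocount of 1. Within a genotype, ratios of CPM were given with exact Clopper-Pearson intervals for genes with 10 or more reads in the pair. The libraries of a genotype were not copies of each other, with a chi-square per degree of freedom of 5.63 (cKI f/+) and 7.49 (WT). The fit was checked on data simulated with the same coefficient of variation, 8.72%, for all genes. That check does not cover genes that vary as widely within a genotype as the members. The fit was repeated leaving out each library, leaving out the sex chromosomes, with DESeq2 1.42.0, with the likelihood ratio test of edgeR, and with other scalings, filters, thresholds and folds. The medians of the lists without KI3 were added after seeing the data.

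The members and all gene lists were chosen with earlier results of these data known. Named genes are all members, the called, 4 most abundant and 4 most changed of the other choroid plexus genes, leading or defining genes of the cell type lists, neighbours of members, Xist and Y-linked genes, and the 5 genes most like the members. Spint2, Sulf1, Krt8, Tmem72, Cldn2, Kl, Ccdc153, Foxc1, Cfap126, Ak7, Dio3, Fgf15 and B130024G19Rik were named after their values were seen.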

Additional observations from a re-analysis of the deposited data

How the results depend on the processing

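No choroid plexus gene was called with any of the other scalings, filters or DESeq2, without chromosomes X and Y, or at an adjusted p under 0.1, but edgeR's likelihood ratio test called 1 (Ttr, adjusted p = 1.89e-11). Fits with a library left out also made calls, which rest on a lone library of a genotype and are given only as a description. The likelihood ratio test also called 1 of the other choroid plexus genes. Over all genes the 19 calls became 54 by that test, 4 where 10 counts were asked of every library, which drops genes absent in a genotype, 11 without the sex chromosomes, and 46 to 71 with a library left out. Among genes passing the filter, 5 members were past 1.5-fold between KI3 and KI2, since fewer were tested. Signs turned for Folr1 (-0.09 without KI3, -0.18 without WT1), Enpp2 (-0.25 and -0.12) and Otx2 (-1.16 and -0.06), and the cause was not tested. With a library left out, log2 fold changes ranged from 5.76 to 12.05 for Ttr, 1.13 to 2.2 for Aqp1, 0.98 to 3.90 for Clic6, -0.18 to 2.21 for Folr1, -0.25 to 0.30 for Enpp2 and -1.16 to 1.08 for Otx2. The remaining alternatives moved them by little, as from 7.93 to 8.02 for Ttr, whose adjusted p by edgeR was 0.056 with upper quartile scaling and 0.35 with no filter. Depth limits the members with few reads, since 4 did not pass the filter. No paired analysis was possible because the genotypes share fewer than 2 replicate numbers, with none in common in the labels and only the 3 of KI3 and WT3 in the table, and no litter is given for any library.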

Other observations

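Genes were ranked by the ratio of KI3 to KI2, from the highest down, among 13668 genes with at least 50 reads in the pair. The ranking was made after the values were seen and does not cover genes that were higher in KI2. Kcne2 was at rank 2, Ttr at rank 3, Clic6 at rank 5 and Otx2 at rank 7, while Aqp1 was at rank 51 and Enpp2 at rank 350. The other genes among the first 7 were Dio3, the deiodinase that inactivates thyroid hormone, Fgf15, a growth factor of the developing brain, and B130024G19Rik. Of these first 7 genes, all but Ttr had 6 to 15 reads in KI2 and met the limit of 50 reads through KI3. Their high ranks are therefore partly built in. Dio3 had 6 and 89 counts in KI2 and KI3, and 0 and 17 in WT1 and WT3. In the same order, Fgf15 had 10, 82, 15 and 19, and B130024G19Rik had 9, 56, 10 and 38. All 3 were highest in KI3, and in each of them KI2 lay below WT3. In the WT pair, Otx2 was at rank 59 and Enpp2 at rank 782 of 13590 genes by the ratio of WT3 to WT1.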
